A study of Mus musculus with 30 samples.

Results

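CD11c+ cells from primed mice given abatacept were set against CD11c+ cells from mice made tolerant by feeding, on 3 arrays of each kind. The 6 arrays were chosen by their titles, from 30 arrays in all, and all 17097 genes with 1 symbol on the array were looked at. The comparison asks how the antigen-presenting cells of a response held back by blocked costimulation differ from those of a response to fed antigen. All mice were DO11.10 RAG2-/- BALB/c animals aged 8 to 10 weeks. Their T cells carry 1 transgenic receptor for an ovalbumin (OVA) peptide, and loss of RAG2 leaves them without B cells and without T cells of other specificities. The abatacept group was primed with 100 µg of OVA in complete Freund's adjuvant and treated with 10 mg/kg of abatacept. The tolerised group drank water with OVA and received neither adjuvant nor drug. The labels give the oral dose once per ml and once per kg, so it is not stated here. Cells were taken 10 days after immunisation from pooled spleen and lymph nodes in both groups and enriched with CD11c microbeads. Adjuvant, route of antigen and drug changed together between the groups and cannot be told apart. The labels do not say whether replicates came from separate mice or pools. Every p-value therefore measures only the spread between arrays within the groups fitted, which may be technical.

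Dendritic cells take up antigen, display its peptides on MHC class II molecules and meet T cells with the ligands CD80 and CD86, which engage CD28 on the T cell. Abatacept is a fusion of the extracellular domain of CTLA-4 with the Fc part of an antibody and occupies CD80 and CD86, so that CD28 is not engaged. On activation dendritic cells turn on CD40, chemokines such as CCL17 and CCL22, and a maturation program that they also run in part in the resting state. CD11c, encoded by Itgax, is carried by dendritic cells and also by some macrophages, monocytes and other cells of the spleen.

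Levels are log2 values of robust multi-array average (RMA) processing, and differences are abatacept minus tolerised on that scale, so that 1 is a doubling. Differences were tested with limma over the 15 CD11c+ arrays of the series, and calls were made where the Benjamini-Hochberg adjusted p over the 10203 genes tested was under 0.05. The label was borne out by Itgax, which lay between 9.56 and 10.29 on the CD11c+ arrays and between 3.30 and 7.04 on the CD4+ arrays, and by Cd74, the MHC class II invariant chain, at 11.68 to 12.23 against 5.33 to 9.58. The T cell receptor chain gene Cd3e was measurable in the fraction, at 6.82 to 8.78, against 10.69 to 11.65 on the CD4+ arrays. The B cell gene Cd79a lay at 4.0 to 4.96, around the array medians of 4.4555 to 4.544. A mean below those medians is not shown to be above background, and folds against it are not exact. In bulk RNA, fewer cells of a type and less RNA per cell cannot be told apart. Correlations over all probe sets were 0.993 to 0.995 among abatacept arrays, 0.990 to 0.993 among tolerised arrays and 0.974 to 0.985 between them. Along the leading principal component of the 6 arrays, which held 75.0% of the variance, the groups separated. Along the next, with 9.98%, tolerised replicate 1 lay apart at -19.1 from tolerised replicates 2 and 3 at 12.4 and 10.8. The salivary gene Amy1 was high on replicate 3 of both groups, at 2.63, 2.79 and 7.69 on the abatacept arrays and 2.55, 2.30 and 8.08 on the tolerised arrays. Over all CD11c+ arrays of the series it reached 12.15. The Y-linked gene Eif2s3y averaged 2.53 ± 0.18 on abatacept and 2.62 ± 0.22 on tolerised arrays (SD, n = 3 each), so it did not separate these groups.

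The transcripts of CD11c+ cells differed widely between the groups. Of the 10203 genes tested, 3824 were called (37.5%), 1690 higher after abatacept (16.6%) and 2134 lower (20.9%). A change of at least 2-fold was called for 766 genes (7.51%), with 416 higher (4.08%) and 350 lower (3.43%). The 3 abatacept and 3 tolerised arrays did not overlap for 4850 genes (47.5%). The median difference over all genes tested was -0.04 and the median size of a difference was 0.22. Without replicate 3 of both groups, the arrays with salivary transcripts, 3109 genes were called, 1595 higher and 1514 lower. Shares of gene groups given in what follows are to be read against these percentages.

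Among the genes lowest after abatacept were products of inflamed tissue, the chemokines of activated dendritic cells, and inhibitors of interleukin 1. Saa3, an acute phase serum amyloid, read 5.24, 5.12 and 4.58 on the abatacept arrays, against 9.06, 9.21 and 9.89 on the tolerised arrays, a difference of -4.41 (SE 0.47, limma adjusted p = 2.1e-05). Stfa3 and Stfa2l1 encode stefins, which inhibit cysteine proteases. Stfa3 read 4.49, 3.80 and 4.79 after abatacept and 8.71, 8.50 and 9.01 in tolerised cells, a difference of -4.38 (SE 0.25, adjusted p = 1.4e-06), and Stfa2l1 differed by -4.02. Il1rn, the interleukin 1 receptor antagonist, read 5.30, 5.37 and 5.03 on abatacept arrays, against 8.69, 8.17 and 8.83 on tolerised arrays. Il1r2, a decoy receptor for the same cytokine, read 3.54, 4.23 and 4.0 and 6.82, 6.94 and 7.74 in the same order. For each of these genes every abatacept array lay more than 2 log2 units below every tolerised array. Complement factor B (Cfb, -3.44), clusterin (Clu, -3.38), an extracellular chaperone, coagulation factor X (F10, -3.13), the adaptor Stap2 (-3.12) and the semaphorin receptor Nrp2 (-2.78) were also among the 15 largest falls. So were the chitinase-like genes Chil3 (-2.76) and Chil4 (-3.19) and the matrix protein gene Spon1 (-2.63), of which Chil4 and Spon1 came to -1.67 and -1.42 with the mean of all their probe sets.

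The 15 largest rises were of genes of varied function, and every abatacept array lay above the array medians for each of them. Cbr2, a carbonyl reductase, read 8.35, 8.17 and 7.78 on the abatacept arrays, against 3.59, 4.14 and 4.51 on the tolerised arrays, a difference of 4.02 (SE 0.32, adjusted p = 3.6e-06). Its tolerised values lay around or below the array medians. Col14a1, a fibril-associated collagen, read 9.31, 9.15 and 9.07 after abatacept and 4.77, 6.54 and 6.22 in tolerised cells, a difference of 3.33 (SE 0.38). Pcolce2, which promotes the processing of procollagen, read 9.75, 9.65 and 9.67 and 5.88, 7.52 and 6.93 in that order. In both genes tolerised replicate 1 was the lowest array, and the groups stayed apart by more than 2 log2 units. The serine protease Prss29 (3.21), the transmembrane gene Vstm4 (2.70), the heparan sulphate sulphotransferase Hs3st2 (2.55), Lhfp (2.63) and G730013B05Rik (2.63) followed. The diacylglycerol kinase Dgki, the peptide transporter Slc15a2 and the transcription factor Glis3 rose by 2.86, 2.75 and 2.63, and by 2.26, 2.07 and 2.04 without tolerised replicate 1. Car3, a carbonic anhydrase (3.12), Sgip1 (2.60) and the potassium channel Kcnj9 (2.54) came to 1.01, 1.42 and 0.88 with the mean of all their probe sets. The call of Ypel4 (2.56, adjusted p = 0.014) was lost without abatacept replicate 2, at 2.32.

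**Figure D1:**
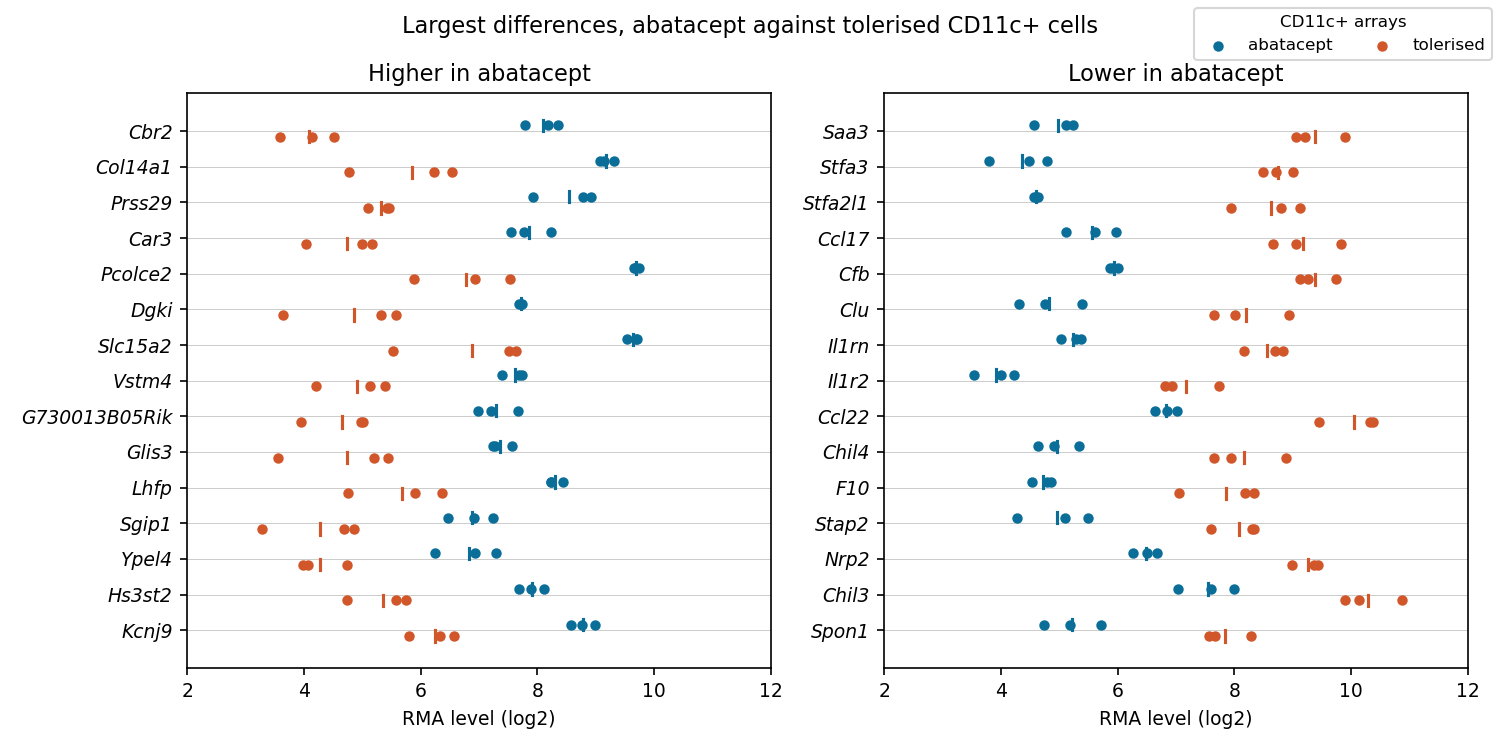
Levels (RMA, log2, horizontal axis) of the 15 genes with the largest rise and the 15 with the largest fall after abatacept, among called genes whose arrays do not overlap. Points are arrays, 3 per group, with abatacept drawn above tolerised in each row, and short bars are group means. Saa3 lies between 4.58 and 5.24 on abatacept arrays and between 9.06 and 9.89 on tolerised arrays.

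Genes of dendritic cell maturation were lower after abatacept. Of 13 tested genes of the mature migratory dendritic cell list, 11 fell, 1 rose and 1, Il12b, was not called, with a median difference of -1.29. Ccl17, a ligand of the chemokine receptor CCR4, read 5.98, 5.62 and 5.12 on the abatacept arrays, against 8.66, 9.06 and 9.82 on the tolerised arrays, a difference of -3.61 (SE 0.40, adjusted p = 2.7e-05). Ccl22, the other CCR4 ligand, read 7.01, 6.85 and 6.65 and 9.45, 10.33 and 10.37 in that order, a difference of -3.22 (SE 0.34). Cd40, the receptor through which T cells license dendritic cells, read 7.83, 7.72 and 7.67 after abatacept and 9.35, 9.69 and 10.03 in tolerised cells, a difference of -1.95 (SE 0.23, adjusted p = 4.7e-05). None of these 3 genes had overlapping groups. Tmem176a, a membrane protein gene of dendritic cells (-1.29), and Relb, an NF-kappaB subunit that dendritic cells need to mature (-0.93), fell as well. The 1 riser was Cd83, a surface marker of mature dendritic cells, with 9.72, 9.58 and 9.22 on abatacept and 8.67, 9.0 and 8.84 on tolerised arrays and a difference of 0.67 (SE 0.14, adjusted p = 0.0021). Il12b, a chain of interleukin 12, read 5.56, 5.22 and 4.99 after abatacept and 5.38, 5.20 and 5.34 in tolerised cells, with a difference of -0.05 (95% interval -0.36 to 0.26, adjusted p = 0.82). Ccr7 was not analysed here.

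Of the ligands of abatacept itself, Cd86 moved in the opposite direction to Cd40 and Cd80 was not called. Cd86 read 9.75, 9.72 and 9.58 on the abatacept arrays, against 8.92, 9.18 and 9.13 on the tolerised arrays, and was higher after abatacept by 0.61 (SE 0.10, adjusted p = 0.00033). Its groups did not overlap, and another probe set of the gene differed by 0.98. Cd80 read 6.10, 6.20 and 5.48 after abatacept and 6.0, 6.13 and 6.12 in tolerised cells, a difference of -0.15 that was not called (95% interval -0.60 to 0.30, adjusted p = 0.6). Its sign turned without abatacept replicate 3, where it was 0.07. The PD-1 ligands were lower after abatacept. Pdcd1lg2, which encodes PD-L2, read 4.25, 4.31 and 4.13 on abatacept arrays, below the array medians, and 6.0, 6.20 and 6.39 on tolerised arrays, a difference of -1.97 (SE 0.25, adjusted p = 6.5e-05). Cd274, which encodes PD-L1, averaged 7.02 ± 0.15 after abatacept and 8.0 ± 0.18 in tolerised cells (SD, n = 3 each), a difference of -0.97. Pdcd1lg2 passed the filter only through other groups, so its fall is no test of the costimulation list. Of 10 tested genes of that list, 2 rose and 5 fell, with a median of -0.31. The other riser was Vsir, an inhibitory B7 relative (0.55), and the other called falls were of Icosl, the ligand of ICOS (-0.47), and Tnfsf14, also known as LIGHT (-0.97).

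Genes known for making dendritic cells regulatory were divided, with more of them lower than higher after abatacept. Aldh1a2, the enzyme by which dendritic cells of the gut and its lymph nodes make retinoic acid, read 4.93, 4.52 and 4.43 on the abatacept arrays, against 6.63, 7.38 and 6.83 on the tolerised arrays, a difference of -2.32 (SE 0.45, adjusted p = 0.0013). The abatacept values lay around the array medians and every tolerised array lay higher. Il4i1, an amino acid oxidase that restrains T cells, differed by -1.74, and Havcr2, which encodes TIM-3, by -0.90. Tgfb1 rose by 0.43 (SE 0.07, adjusted p = 0.00061), and Entpd1, the ectoenzyme CD39, by 0.93. In all, 2 of 10 tested genes of the tolerogenic list rose and 5 fell, with a median of -0.51. Ido1 and Il10 stayed at background on all 6 arrays, at 2.74, 2.74 and 2.76 for Ido1 after abatacept and 3.47, 2.92 and 3.14 in tolerised cells. Of the gut and retinoic acid list, the integrin chains Itgae (-1.84) and Itgb7 (-0.78) fell, while the retinoid receptor Rxra (1.5) and the retinol dehydrogenase Rdh10 (0.73) rose. That list held 2 rises and 4 falls among 11 tested genes. Transforming growth factor receptors were higher, with Tgfbr2 at 0.93, Tgfbr1 at 0.54 and the integrin Itgav, which helps to activate the cytokine, at 0.90. Of 13 tested genes of that pathway 5 rose and 2 fell.

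**Figure D2:**
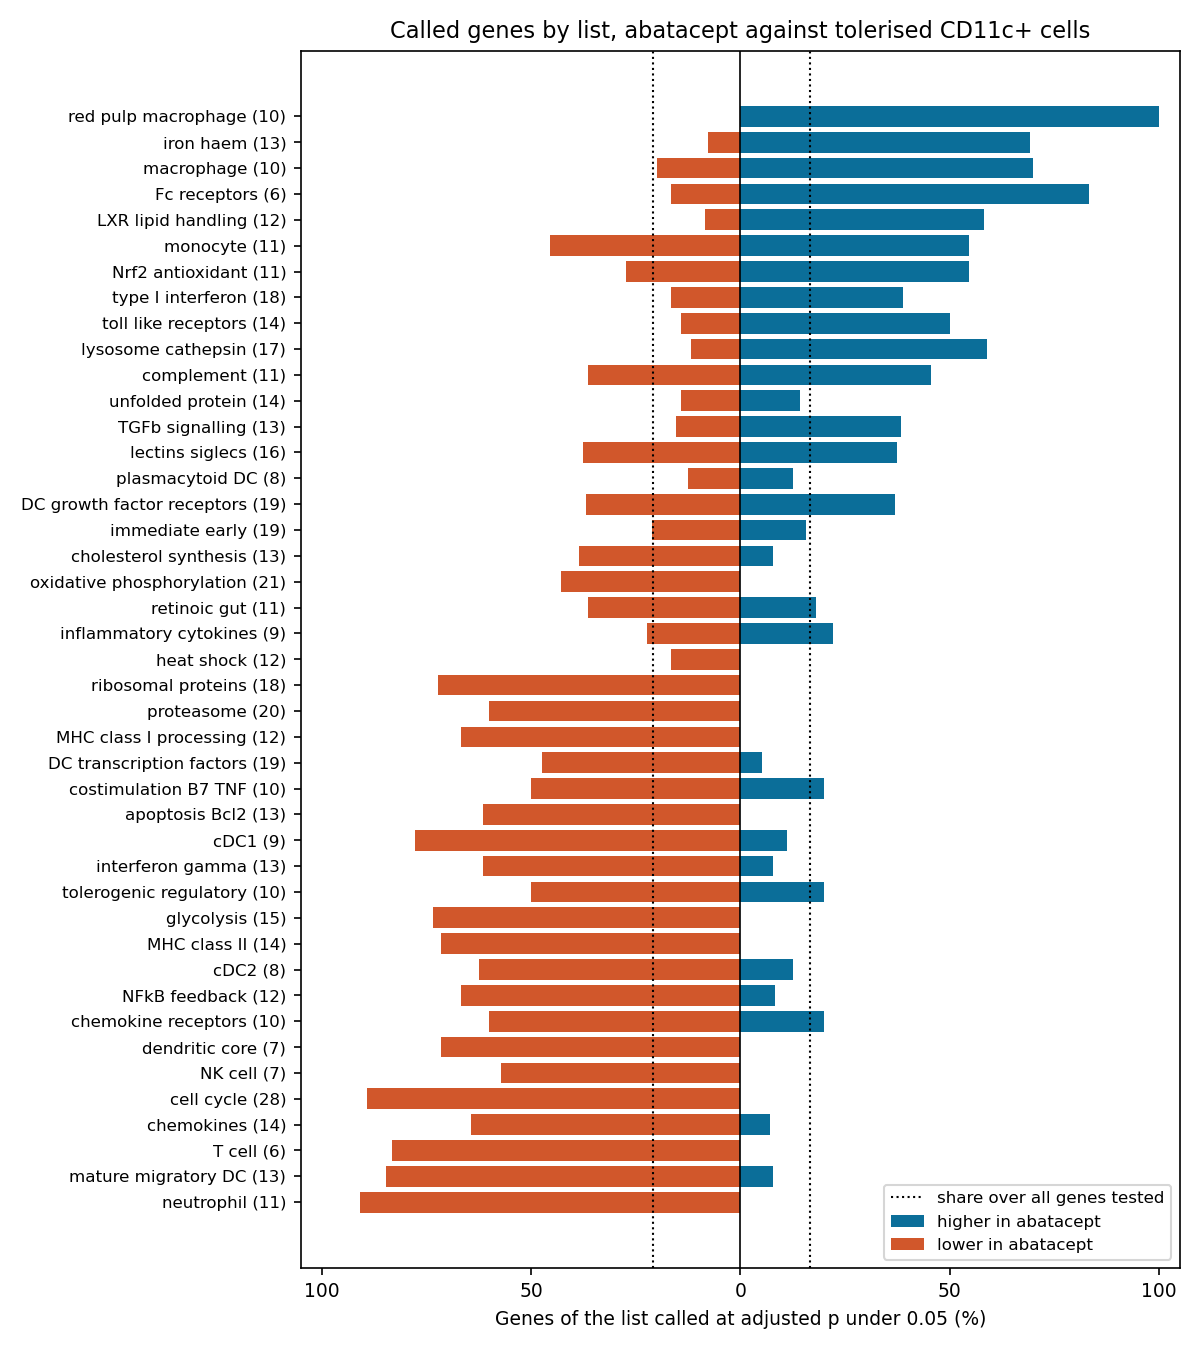
Share of the tested genes of each list (number tested in brackets, lists with at least 6) that were called higher after abatacept, to the right, or lower, to the left, in percent. Lists run by their median difference from top to bottom, and the dotted lines mark 16.6% higher and 20.9% lower over all genes tested. The red pulp macrophage list has all 10 genes higher, and the neutrophil list has 10 of 11 lower.

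Antigen presentation by MHC class II was lower after abatacept in most of its genes. Of 14 tested members of the list, 0 rose and 10 fell, with a median of -0.55, and 11 had arrays that did not overlap. Ciita, the transactivator that switches class II genes on, read 6.25, 6.48 and 6.76 on the abatacept arrays, against 7.68, 7.65 and 7.76 on the tolerised arrays, a difference of -1.20 (SE 0.15, adjusted p = 7.2e-05). The peptide-loading genes H2-DMa (-0.64), H2-DMb1 (-0.67) and H2-DMb2 (-0.98) fell. Of the classical chains, H2-Ab1 averaged 11.72 ± 0.06 after abatacept and 12.17 ± 0.07 in tolerised cells (SD, n = 3 each), a difference of -0.45 (adjusted p = 0.00044). The partner chain H2-Aa differed by -0.17 (adjusted p = 0.36) and the invariant chain Cd74 by -0.17 (adjusted p = 0.15), neither of them called. With the probe set of H2-Aa that was highest over the CD11c+ arrays the difference was -0.35 and was called. In human and mouse, class II promoters share a block of boxes whose bound factors recruit CIITA, and it ends in the Y box. The letters GATTGG, the core of the Y box on 1 strand, were searched on both strands of the 250 bases before each start site in RefSeq (GRCm38.p6). They were found in 10 of the 10 genes of the list with a promoter there (100.0%) and in 4486 of all 27025 genes (16.6%). The motif was chosen after these sequences were seen, and a match is a description and not a site. The promoter stretches that follow, 64 bases each in the direction of the gene, are shown because they hold the shared letters, in capitals, in genes with different responses. They are all 8 H2 genes of the list whose stretch on the gene's own strand lay whole in that window. The letters begin 44 to 101 bases before the start site in 7 of them and 199 bases before it in H2-DMa.
H2-DMb2, chr17:34145113-34145176, plus strand: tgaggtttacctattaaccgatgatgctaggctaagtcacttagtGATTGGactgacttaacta
H2-Ob, chr17:34238802-34238865, plus strand: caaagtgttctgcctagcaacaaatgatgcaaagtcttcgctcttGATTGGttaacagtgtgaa
H2-Oa, chr17:34092290-34092353, plus strand: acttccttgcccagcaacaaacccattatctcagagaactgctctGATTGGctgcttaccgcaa
H2-Eb2, chr17:34325529-34325592, plus strand: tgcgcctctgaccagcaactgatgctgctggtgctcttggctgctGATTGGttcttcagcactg
H2-DMb1, chr17:34153084-34153147, plus strand: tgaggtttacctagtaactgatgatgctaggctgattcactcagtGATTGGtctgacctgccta
H2-DMa, chr17:34125274-34125337, plus strand: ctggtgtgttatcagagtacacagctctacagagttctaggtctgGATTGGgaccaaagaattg
H2-Eb1, chr17:34305762-34305825, plus strand: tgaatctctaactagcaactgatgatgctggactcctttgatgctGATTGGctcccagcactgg
H2-Aa, chr17:34287854-34287917, minus strand: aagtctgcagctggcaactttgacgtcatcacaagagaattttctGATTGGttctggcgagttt
They are ordered by size of change. H2-DMb2, with the largest fall of the 8, read 9.29, 9.39 and 9.59 on the abatacept arrays and 10.24, 10.54 and 10.42 on the tolerised arrays. The chains of H2-O, which tempers peptide loading, differed by -0.85 for H2-Ob and -0.82 for H2-Oa, and H2-Eb2 and H2-Eb1 by -0.77 and -0.32. Of the class I processing list, 8 of 12 tested genes fell, 5 when only the 6 arrays were fitted, and 0 rose. They included the immunoproteasome subunits Psmb8 (-0.63) and Psmb9 (-0.46) and the activators Psme1 (-0.41) and Psme2 (-0.71).

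Genes that define dendritic cells were lower after abatacept, though not all. In the core list 5 of 7 tested genes fell and 0 rose (median -0.66). Flt3, the receptor of the growth factor that dendritic cells depend on, read 7.04, 7.31 and 7.54 on the abatacept arrays, against 8.18, 8.46 and 8.22 on the tolerised arrays, a difference of -1.0 (SE 0.13, adjusted p = 6.6e-05). Itgax itself differed by -0.58 (SE 0.08), Kit by -1.03 and Dpp4 by -0.66. Of 9 tested genes of the cDC1 list, the cross-presenting subset, 7 fell and 1 rose. Ly75, the endocytic receptor DEC-205, read 6.28, 6.30 and 6.40 after abatacept and 7.94, 8.30 and 8.17 in tolerised cells, a difference of -1.81 (SE 0.18). Itgae, which encodes CD103, read 5.86, 6.08 and 6.39 and 8.02, 8.03 and 7.81 in that order. The chemokine receptor Xcr1 (-0.97) and Cd8a (-1.19) were also lower, while the adhesion gene Cadm1 was higher by 0.82. Of 8 tested genes of the cDC2 list 5 fell, 3 without abatacept replicate 1 or 3, and the inhibitory receptor Sirpa rose by 0.64. Mgl2, a lectin of that subset (-1.16), Irf4, its transcription factor (-0.48), and Ltb (-0.90) were among the falls. The plasmacytoid list held 1 rise and 1 fall among 8 tested genes, 25.0% called against 37.5% of all genes. The fall was of Ly6d (-0.67), and the rise, of Klk1 (0.49), was not seen in 2 other probe sets of that gene, which differed by -0.01 and 0.005. Transcription factors and growth factor receptors of the lineage were divided. Nfil3, needed for cDC1 development, differed by -1.23. Zeb2, which is known from mouse to favour cDC2 and plasmacytoid cells, rose by 0.60, and in all 1 of 19 tested factors rose and 9 fell. Among 19 tested receptor genes 7 rose and 7 fell, with Csf2rb, the signalling chain of the GM-CSF receptor, at -0.98.

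Chemokine genes were mostly lower after abatacept, in a list that shares Ccl17 with the maturation list. Of 14 tested, 9 fell and 1, the eotaxin Ccl24, rose by 0.94, a call lost without abatacept replicate 1 or tolerised replicate 1. Cxcl9, a ligand of CXCR3 that interferon gamma induces, read 7.10, 7.35 and 7.30 on the abatacept arrays, against 10.28, 9.47 and 9.84 on the tolerised arrays, a difference of -2.61 (SE 0.21, adjusted p = 3.9e-06). Ccl9 differed by -1.17. Among 10 tested chemokine receptor genes 6 fell and 2 rose. Ccr6, which guides cells to mucosal tissue, was lower, at -1.18, and so was Cxcr2, a neutrophil receptor, at -1.89. Ccr3, the eotaxin receptor, read 10.37, 10.49 and 10.44 after abatacept and 7.94, 8.50 and 8.77 in tolerised cells, a difference of 2.03 (SE 0.19, adjusted p = 1.0e-05). Of the eosinophil genes beside it, Prg2, Epx and Il5ra lay below the array medians on most of the 6 arrays and were not tested.

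Genes induced by interferon gamma were lower and some induced by type I interferon higher. Of 13 tested genes of the interferon gamma list 8 fell and 1 rose (median -0.48). Gbp2, a guanylate-binding protein, averaged 6.39 ± 0.37 after abatacept and 8.33 ± 0.41 in tolerised cells (SD, n = 3 each), a difference of -1.94, and the uridine phosphorylase Upp1 differed by -2.03. The riser was Irgm2 (0.42), whose call was lost without abatacept replicate 1 or 3 or tolerised replicate 2. Of 18 tested genes of the type I list 7 rose and 3 fell, or 1 fell without abatacept replicate 3. Ifit3, an antiviral gene, read 9.07, 9.09 and 9.06 on the abatacept arrays, against 7.72, 7.69 and 8.05 on the tolerised arrays, a difference of 1.26 (SE 0.15, adjusted p = 5.0e-05). Mx2 (0.96) and the RNA sensor Ifih1 (0.49) rose too, while the nucleic acid sensor Zbp1 fell, at -1.34.

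Acute phase genes that were high enough to test, 4 of 12 on the array, were all lower after abatacept (median -2.23). Beside Saa3 they were haptoglobin (Hp, -2.09), ceruloplasmin (Cp, -1.13) and lipocalin 2 (Lcn2, -2.36), which neutrophils also store. Of 9 tested inflammatory cytokine genes 2 rose and 2 fell, 44.4% called against 37.5% of all genes. The falls were 4 without tolerised replicate 2. Il18 rose, with 10.20, 10.20 and 10.02 on the abatacept arrays and 8.20, 8.97 and 8.92 on the tolerised arrays, a difference of 1.44 (SE 0.19). Ebi3, a chain shared by some cytokines of the interleukin 12 family, rose by 0.50, and the macrophage growth factor Csf1 differed by -1.21. Il1b and Tnf were not called, at -0.54 (adjusted p = 0.095) and -0.35 (adjusted p = 0.094), and Il6 was too low to test. Both were called without tolerised replicate 2, at -0.75 and -0.52, and Tnf also without abatacept replicate 2, at -0.51. Genes that NF-kappaB switches on in its own feedback were lower in 8 of 12 cases, among them Traf1 (-1.17) and Birc3 (-0.69), and the 1 riser was Nfkbiz (0.53).

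Many sensors of microbial products and most receptors for antibody were higher after abatacept. Of 14 tested Toll-like receptor genes and adaptors 7 rose and 2 fell. Tlr4, the receptor of lipopolysaccharide, read 10.54, 10.63 and 10.68 on the abatacept arrays, against 9.19, 9.12 and 9.47 on the tolerised arrays, a difference of 1.36 (SE 0.15, adjusted p = 2.3e-05). Its partners Cd14 (1.73) and Ly96 (1.23) rose with it, as did Tlr8 (1.31). Of 6 tested Fc receptor genes 5 rose and 1 fell. The activating receptor Fcgr1 read 10.06, 10.01 and 10.0 after abatacept and 8.21, 8.02 and 8.89 in tolerised cells, a difference of 1.65 (SE 0.19). The fall was of Fcgr2b, the inhibitory receptor, with 7.21, 7.48 and 7.54 and 8.89, 8.91 and 9.36 in that order, a difference of -1.64 (SE 0.17, adjusted p = 1.8e-05). Activating and inhibitory receptor genes thus moved in opposite directions, each without overlap. The common chain Fcer1g rose by 0.69, and Fcgrt, which recycles antibody, by 1.32. The lectin list was divided, 6 rises and 6 falls among 16 tested genes, with Siglece at 1.61 and Clec4d at -2.03.

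Macrophage genes, above all those of the red pulp of the spleen, were higher after abatacept. All 10 genes of the red pulp macrophage list rose, with a median of 1.58. Spic, the transcription factor that red pulp macrophages need, read 10.60, 10.61 and 10.45 on the abatacept arrays, against 8.32, 9.02 and 9.06 on the tolerised arrays, a difference of 1.76 (SE 0.18, adjusted p = 1.9e-05). Fcna, a ficolin, read 11.76, 11.74 and 11.53 after abatacept and 8.93, 9.97 and 10.01 in tolerised cells, a difference of 2.04 (SE 0.24). The haem oxygenase Hmox1 read 11.73, 11.73 and 11.51 and 9.58, 10.52 and 10.07 in that order. The tolerised arrays differed among themselves, with replicate 1 lowest in all 3 genes. Transferrin (Trf, 1.85) and the complement chain C1qb (1.59) rose too. Of 10 tested genes of the general macrophage list 7 rose, among them the F4/80 gene Adgre1 (1.42), the efferocytosis receptor Mertk (1.64) and Cd68 (1.17). The 2 falls were of lysozyme (Lyz2, -1.30) and the scavenger receptor Msr1 (-2.12), and Marco was not called. Of 11 tested monocyte genes 6 rose and 5 fell. Treml4 rose by 1.40 and Fn1, which encodes fibronectin, differed by -1.56.

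Genes of iron, lipid and lysosomal pathways, in which macrophages are rich, were mostly higher too. Of 13 tested iron and haem genes 9 rose and 1 fell (median 1.36). The biliverdin reductases Blvra (1.47) and Blvrb (1.56) and the haem transporter Slc48a1 (1.36) were among the rises. Of 12 tested genes of lipid handling 7 rose and 1 fell. Pparg, a nuclear receptor of fatty acids, read 9.81, 9.79 and 9.55 on the abatacept arrays, against 7.23, 7.34 and 7.73 on the tolerised arrays, a difference of 2.28 (SE 0.16, adjusted p = 2.1e-06). Lipoprotein lipase (Lpl, 1.54), apolipoprotein E (Apoe, 1.80) and the cholesterol exporter Abcg1 (0.80) rose with it, while the fall was of Fabp5 (-0.77). Lysosomal genes rose in 10 of 17 cases, led by the protease Lgmn (1.89) and cathepsin D (Ctsd, 0.89), and fell in 2, Ctsh (-0.49) and Cst3 (-0.38). Complement was divided, with 5 rises and 4 falls among 11 tested genes. Properdin (Cfp) rose by 1.08, whereas the receptor gene C5ar1 differed by -1.23 and factor B by -3.44. Of 11 tested antioxidant genes 6 rose, 3 without abatacept replicate 1, and 3 fell. The glutathione enzyme gene Gclm rose by 1.02.

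Neutrophil genes were lower after abatacept. Of 11 tested, 10 fell and 0 rose, with a median of -1.90, and the eleventh, Csf3r, was not called (-0.56) except without tolerised replicate 2, at -0.87. The collagenase Mmp8 read 4.01, 3.77 and 3.88 on the abatacept arrays, below the array medians, against 7.56, 5.68 and 6.05 on the tolerised arrays, a difference of -2.55 (SE 0.41, adjusted p = 0.00034). Mmp8 passed the filter only through other groups, so its fall is no test of the list. The gelatinase Mmp9 read 5.58, 5.05 and 5.50 after abatacept and 8.51, 6.78 and 7.19 in tolerised cells, a difference of -2.12 (SE 0.34). In both, tolerised replicate 1 was the highest array by more than 1 log2 unit, and the other tolerised arrays still lay above every abatacept array. Of the mast cell and basophil list 3 genes passed the filter and all 3 fell. Among them was Kit (-1.03), which is also counted in the dendritic core list. The histidine decarboxylase gene Hdc differed by -2.07 and the basophil protease Mcpt8 by -1.84, or -1.21 without tolerised replicate 1. Mcpt8 averaged 4.10 after abatacept, below the array medians, and 5.94 in tolerised cells. A gene low after abatacept can pass the filter only on other arrays, so these 3 falls are no test of the list. The mast cell genes Cpa3, Ms4a2 and Fcer1a lay below the array medians on all 3 abatacept arrays and were not tested.

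Several genes of T and natural killer cells were lower after abatacept. Of 6 tested T cell genes 5 fell and 0 rose. Cd3g read 6.48, 6.08 and 5.88 on the abatacept arrays, against 8.19, 7.52 and 7.60 on the tolerised arrays, a difference of -1.62 (SE 0.28, adjusted p = 0.00054). Cd3d (-1.27) and the adaptor Lat (-1.07) followed. The count of falls was 3 without abatacept replicate 2, abatacept replicate 3 or tolerised replicate 1. Of 7 tested natural killer genes 4 fell and 0 rose. Granzyme B (Gzmb) read 5.93, 6.69 and 7.23 after abatacept and 9.23, 8.46 and 9.44 in tolerised cells, a difference of -2.43 (SE 0.30). Granzyme A (Gzma, -1.04) and the receptors Ncr1 (-0.85) and Klrk1 (-0.70) fell too. The B cell receptor chain Cd79b rose by 1.5, while its partner Cd79a stayed around the array medians in both groups and Ms4a1, Pax5, Vpreb3 and Blk were too low to test. The haemoglobin gene Hba-a1 rose by 0.89. No salivary gene was called.

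The mean levels of several marker lists, which average many genes already given, set the groups apart, and those of others did not. The monocyte means overlapped, at 7.58, 7.56 and 7.62 on abatacept and 7.60, 7.34 and 7.52 on tolerised arrays. So did the plasmacytoid means, at 6.69, 6.76 and 6.81 and 6.95, 6.70 and 6.66, and those of the platelet, stromal and salivary lists. The red pulp macrophage list averaged 11.06, 11.05 and 10.95 on the 3 abatacept arrays, against 8.98, 9.86 and 9.84 on the 3 tolerised arrays. The neutrophil list averaged 7.46, 6.89 and 7.28 after abatacept and 9.72, 8.57 and 8.50 in tolerised cells. For the T cell list the means were 5.59, 5.44 and 5.34 and 6.66, 6.09 and 6.18 in that order. Neither group overlapped the other in these 3 lists, and tolerised replicate 1 held the lowest macrophage and the highest neutrophil and T cell means. For natural killer genes the means were 7.30, 7.56 and 7.83 after abatacept and 8.32, 8.25 and 8.48 in tolerised cells. The dendritic core list averaged 8.72, 8.82 and 8.84 and 9.34, 9.56 and 9.36, and the mature migratory list 7.11, 6.94 and 6.73 and 8.10, 8.43 and 8.57. The lists that set the groups apart moved with the iron, lipid, chemokine and acute phase genes, and their part in those differences was not tested.

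**Figure D3:**
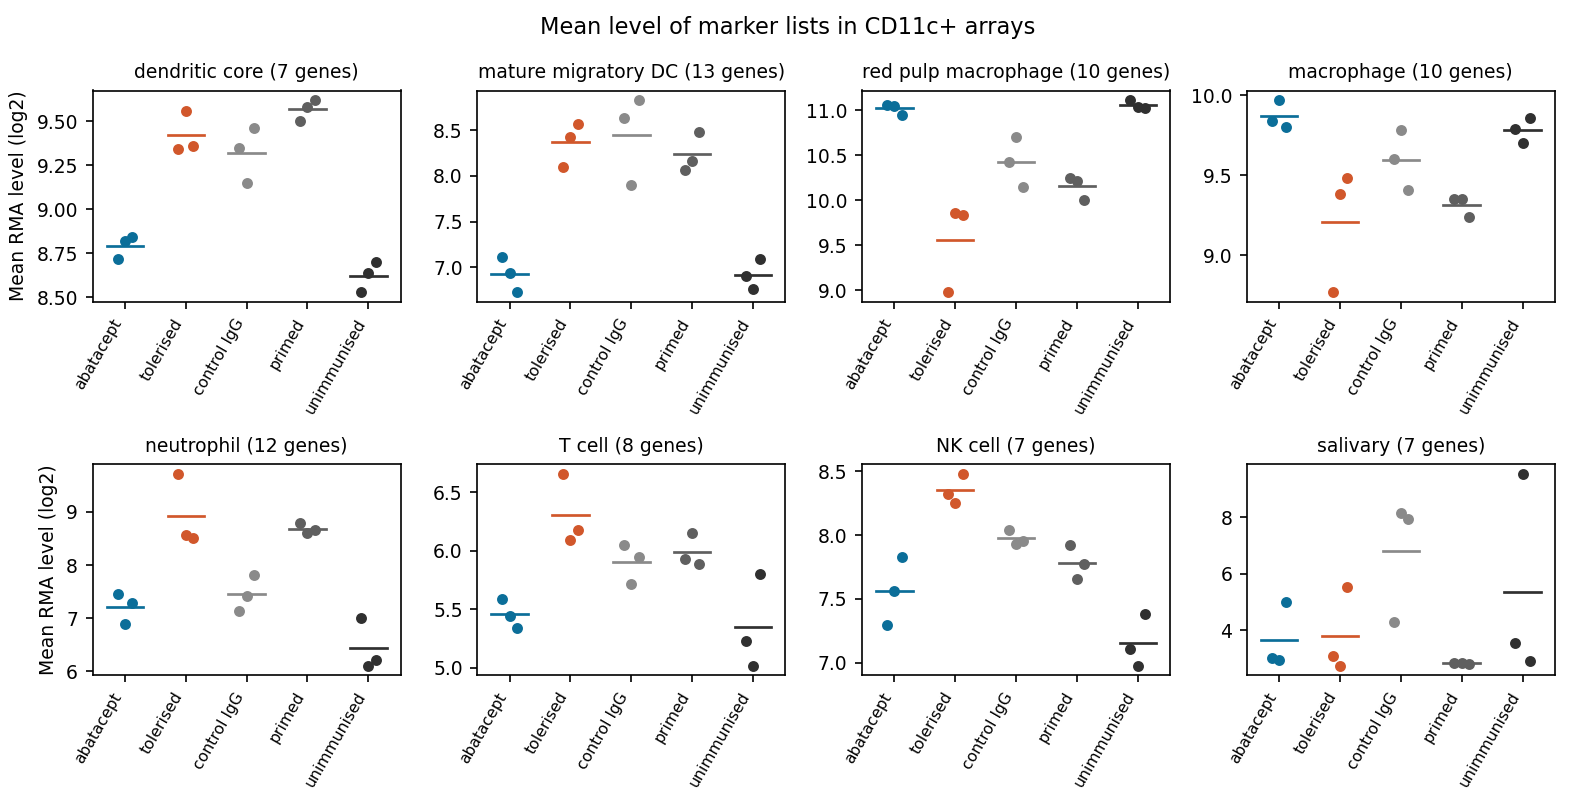
Mean level (RMA, log2, vertical axis) of the genes of marker lists on each CD11c+ array of the 5 groups. Points are arrays, 3 per group. The neutrophil list lies between 6.89 and 7.46 after abatacept and between 8.50 and 9.72 in tolerised cells, and the red pulp macrophage list between 10.95 and 11.06 and between 8.98 and 9.86.

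Many genes of growth and metabolism were lower after abatacept, in some lists by small amounts. Of 28 tested cell cycle genes 25 fell and 0 rose, with a median of -0.72. The count was 16 without abatacept replicate 1 or tolerised replicate 1. The spindle checkpoint kinase Bub1b read 5.75, 5.75 and 5.63 on the abatacept arrays, against 6.78, 6.26 and 7.05 on the tolerised arrays, a difference of -0.99 (SE 0.15, adjusted p = 0.00026). Thymidylate synthase (Tyms, -0.97) and the spindle motor Kif11 (-0.95) fell as well, and tolerised replicate 2 was the lowest tolerised array for all 3. Glycolysis genes fell in 11 of 15 cases and rose in 0, with hexokinase 1 (Hk1) at -1.42 and pyruvate kinase (Pkm) at -0.65. Of 21 tested genes of oxidative phosphorylation 9 fell and 0 rose, with a median of -0.18. Ribosomal protein genes fell in 13 of 18 cases by a median of -0.22 over the list, a count between 7 and 8 without abatacept replicate 2 or 3 or tolerised replicate 2 or 3. Proteasome genes fell in 12 of 20 cases, and in 4 without replicate 3 of both groups. The count of cholesterol synthesis genes that fell was 5 of 13, and 3 without abatacept replicate 2 or 3 or tolerised replicate 1 or 3. Of 13 tested genes of the BCL2 family and death receptors 8 fell and 0 rose. Fas, the death receptor, read 3.72, 3.09 and 3.47 after abatacept, below the array medians, and 6.18, 5.51 and 6.11 in tolerised cells, a difference of -2.50 (SE 0.24, adjusted p = 1.1e-05). Fas passed the filter only through other groups, so its fall is no test of the list. The killer genes Bmf (-1.22) and Bcl2l11 (-0.55) fell as well. Heat shock genes were called in 2 of 12 cases, both falls, a share below that of all genes. Of 19 immediate early genes 3 rose and 4 fell, with Jun at 0.55 and Klf2 at -0.65. The share called, 36.8%, was near the 37.5% of all genes.

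The other CD11c+ groups of the series place these differences. They were mice primed in the same way and dosed with control IgG at 10 mg/kg, primed mice without a further agent, and unimmunised mice, with 3 arrays each. Saa3 averaged 4.98 ± 0.35 after abatacept, 9.39 ± 0.44 in tolerised cells, 7.28 ± 0.64 with control IgG, 5.98 ± 0.97 in primed cells and 4.40 ± 0.71 in unimmunised cells (SD, n = 3 each). The tolerised level thus lay above that of all other groups, and the abatacept and unimmunised arrays overlapped. Cd40 averaged 7.74 ± 0.08 after abatacept, 9.69 ± 0.34 in tolerised, 9.60 ± 0.55 in control IgG, 9.53 ± 0.25 in primed and 7.79 ± 0.19 in unimmunised cells. Here tolerised, control IgG and primed arrays overlapped one another, and abatacept overlapped unimmunised. Spic averaged 10.56 ± 0.09, 8.80 ± 0.42, 9.69 ± 0.31, 9.56 ± 0.13 and 10.73 ± 0.13 in the same order of groups. Against unimmunised cells, Cd40 differed by -0.04 after abatacept (adjusted p = 0.94) and by 1.90 in tolerised cells (adjusted p = 2.9e-05). Saa3 differed by 0.57 (adjusted p = 0.54) and 4.98 (adjusted p = 5.1e-06) in that order, and Spic by -0.17 (adjusted p = 0.66) and -1.93 (adjusted p = 5.6e-06). These comparisons share arrays with the main one. Against unimmunised cells 239 genes were called after abatacept (2.34%), 214 higher (2.1%) and 25 lower (0.245%). With arrays centred on the median of the genes tested, these were 69 higher and 59 lower. In tolerised cells 4958 were called (48.6%), 3252 higher (31.9%) and 1706 lower (16.7%), a balance that turned with arrays so centred, to 2136 higher and 2655 lower. The abatacept count was 128, 54 and 72 without abatacept replicate 1, 2 and 3. Of the 3824 genes called between abatacept and tolerised cells, the unimmunised mean lay nearer to the abatacept mean for 3554 (92.9%), the control IgG mean for 1692 (44.2%) and the primed mean for 894 (23.4%). The count is a description, with no test. It covers only genes selected for a difference between the abatacept and tolerised means. The share over all genes tested was not computed. The Y-linked gene Eif2s3y read 8.76, 5.92 and 8.20 on control IgG and 8.64, 8.58 and 8.53 on primed arrays, and stayed under 3 in the abatacept, tolerised and unimmunised groups. The part of that difference in the distances to control IgG and primed cells was not tested. Salivary transcripts also varied between arrays. The salivary list averaged 4.30, 8.16 and 7.95 on control IgG, 3.55, 9.55 and 2.91 on unimmunised and 2.83, 2.82 and 2.80 on primed arrays. On abatacept arrays it averaged 3.01, 2.92 and 5.0, and on tolerised arrays 3.07, 2.74 and 5.51. With the salivary gene level as a covariate, 143 genes were called between abatacept and unimmunised cells and 4646 between tolerised and unimmunised cells.

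Abatacept and control IgG mice were both primed. Their arrays differed in more than the drug. The Y-linked gene Eif2s3y was high on control IgG arrays and low on abatacept arrays, so what it marks cannot be told apart from the drug. The salivary list averaged 6.80 ± 2.17 on control IgG and 3.64 ± 1.17 on abatacept arrays (SD, n = 3 each). The part of these transcripts in the calls that follow was not tested. Between their cells 1560 genes were called (15.3%), 656 higher after abatacept (6.43%) and 904 lower (8.86%). Cd40 differed by -1.86 (adjusted p = 0.00084), Ccl17 by -3.24 (adjusted p = 0.00082) and Clu by -4.44 (adjusted p = 0.00022). Stfa3 differed by -0.10 (adjusted p = 0.84) and Chil3 by -0.42 (adjusted p = 0.65), neither of them called. Cd86 differed by 0.37 (adjusted p = 0.021) and Pparg by 0.94 (adjusted p = 0.0026).

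**Figure D4:**
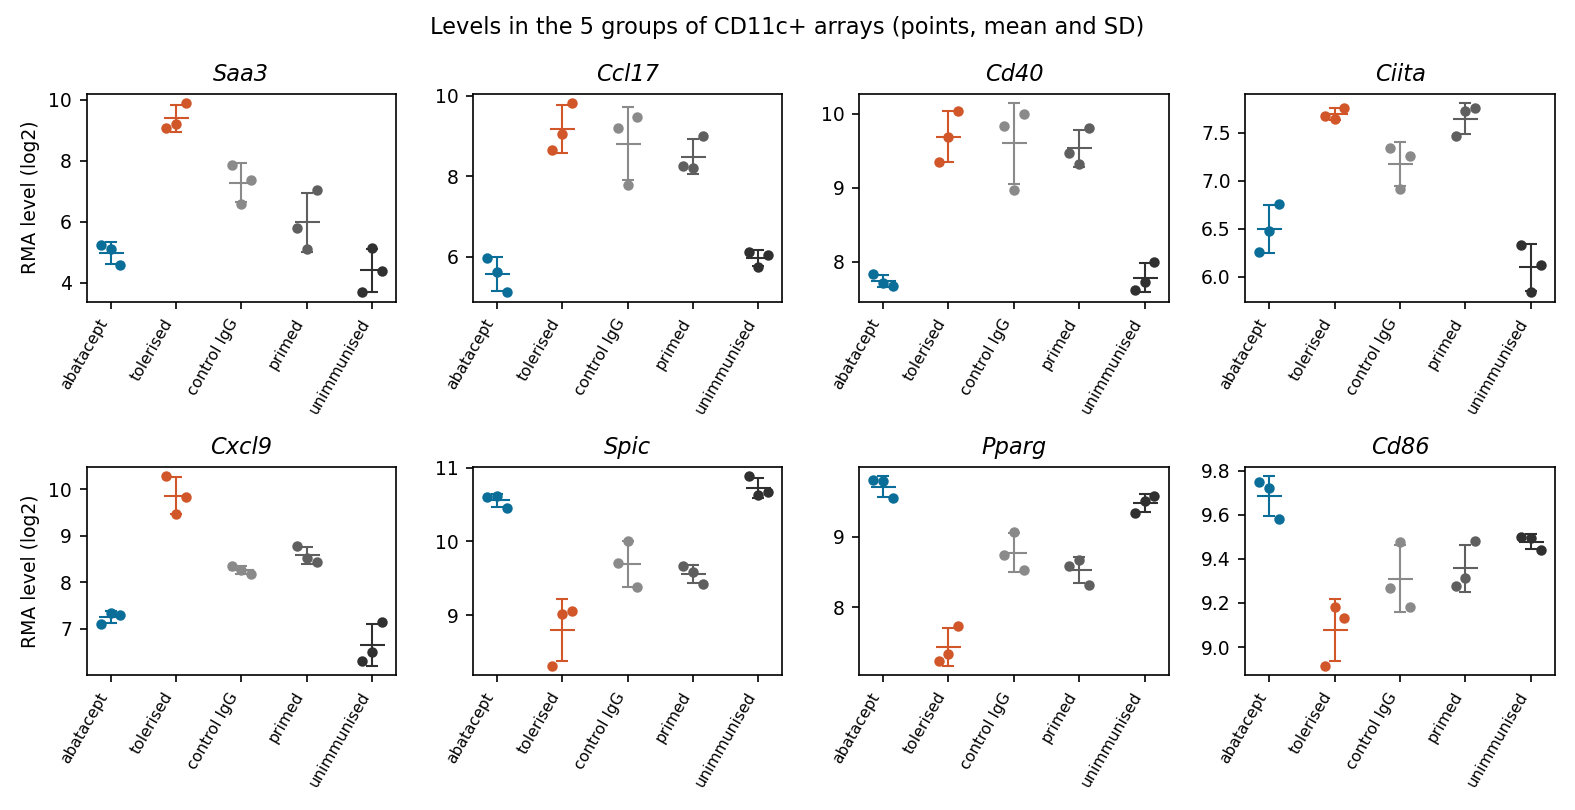
Levels (RMA, log2, vertical axes with separate ranges) of 8 genes in the 5 groups of CD11c+ arrays. Points are arrays, 3 per group, with the mean and SD. For Cd40 and Ccl17 the abatacept arrays lie beside the unimmunised ones and the tolerised arrays beside control IgG and primed ones, while for Saa3 and Cxcl9 the tolerised arrays lie above all other groups.

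Whether the difference between abatacept and tolerance was the same in CD4+ T cells was asked with an interaction term fitted to the 30 arrays. CD4+ cells came from axillary nodes after abatacept and from mesenteric nodes in the tolerised group. The Y-linked gene Eif2s3y lay at 8.84 to 8.96 on tolerised CD4+ arrays and under 3 on the other arrays of this comparison. Xist, the X-inactivation transcript, lay at 5.61 to 7.28 on tolerised CD4+ arrays and at 10.93 to 11.43 on the others. Tissue, the sex that these transcripts mark and treatment therefore cannot be told apart in CD4+ cells or in the interaction. In that fit 2719 of 10838 genes were called in CD4+ cells (25.1%), 871 higher (8.04%) and 1848 lower (17.1%). In CD11c+ cells 3892 were called (35.9%), and the difference between cell types was called for 2991 (27.6%), with 1743 more positive in CD11c+ cells (16.1%) and 1248 more negative (11.5%). After a further quantile normalization the balance turned, with 1608 more positive and 1644 more negative. Ccl17 differed by -3.61 in CD11c+ and -0.31 in CD4+ cells, an interaction of -3.30 (SE 0.46, adjusted p = 1.2e-05). Stfa3 differed by -4.38 and -0.43, an interaction of -3.96. For Cd40 the differences were -1.95 and -0.61 (interaction adjusted p = 0.013). Cxcl9 fell in both, at -2.61 and -2.47, with an interaction of -0.14 that was not called (adjusted p = 0.89). The same held for Saa3, at -4.41 and -3.04 (interaction adjusted p = 0.28), and for Aldh1a2, at -2.32 and -2.19 (adjusted p = 0.91). On the CD4+ arrays Cxcl9, Saa3 and Aldh1a2 lay below the array medians in every abatacept sample, and tolerised replicate 1 was the highest for each, with Cxcl9 at 2.80, 2.72 and 3.10 after abatacept and 7.13, 4.62 and 4.28 in tolerised mice. Of the 10 red pulp macrophage genes, 9 rose in CD11c+ cells in this fit. In CD4+ cells these genes lay around or below the array medians on every abatacept array. The fit called 8 of them lower and 0 higher there, differences that are not shown to be above background. The difference between cell types was called for all 10, with the same limit. Of 29 tested cell cycle genes 26 fell in CD11c+ cells and 26 in CD4+ cells, and 12 differed between cell types, all 12 more negative in CD4+ cells. Of 19 tested type I interferon genes 5 rose and 3 fell in CD11c+ cells and 13 rose and 0 fell in CD4+ cells, and 8 differed. Of 18 ribosomal protein genes 16 fell in CD11c+ cells, 0 were called in CD4+ cells and 12 differed.

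**Figure D5:**
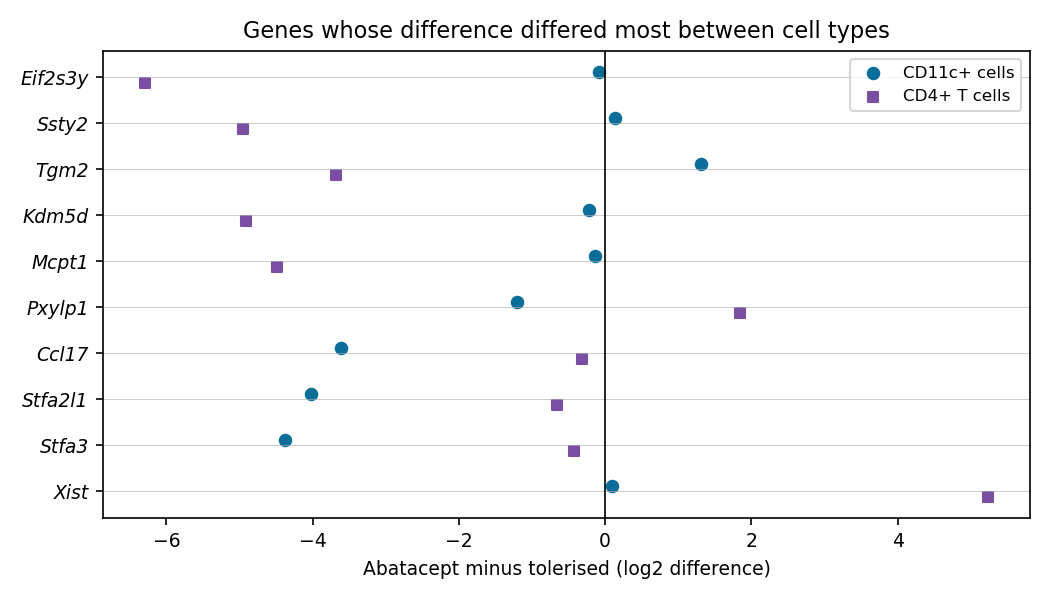
Difference between abatacept and tolerised arrays (log2, horizontal axis) in CD11c+ cells (circles) and CD4+ T cells (squares) for the 10 genes with the largest interaction, 5 in each direction. Stfa3 lies at -4.38 in CD11c+ cells and -0.43 in CD4+ cells, and the Y-linked and X-inactivation genes lie near 0 in CD11c+ cells.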

How the data were processed

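The values analysed are the log2 levels that the authors deposited, computed by RMA per the submitters' processing notes, for 45118 probe sets on 30 arrays. RNA was amplified and biotin-labelled, per the labels' protocols. No source used here names the RMA version. The platform annotation gave a single symbol to 28898 probe sets, several to 551 and none to 15669. A gene measured by more than 1 single-symbol probe set was represented by the brightest on average, which left 17097 genes. The test covered the 10203 genes that exceeded the array median on 3 or more of the 15 CD11c+ arrays. A linear model (limma 3.58.1, R 4.3.3, lmFit and eBayes, two-sided) was fitted to the 5 CD11c+ groups with 10 residual degrees of freedom, and the interaction to all 30 arrays and 10838 genes with 20. Both procedures were tested on simulated data. Each group had 3 arrays, which limits the precision. Replicate numbers were not taken to pair the samples. Deviations of same-numbered arrays correlated at -0.09, -0.08 and -0.015 over the 10203 genes tested. Salivary transcripts were nevertheless high on replicate 3 of both groups, and whether same-numbered arrays share a dissection is not stated.

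Genes were named by a rule. They were the 15 largest rises and 15 largest falls among called genes with no overlap, at most 4 called members of each of 52 lists by smallest adjusted p, 16 genes always named, and the 5 largest interactions each way. Named outside it, after their values were seen, were Amy1, Ccl24, Cd74, Cd83, Csf3r, Cst3, Ctsh, Entpd1, Fabp5, H2-Aa, H2-Eb1, H2-Eb2, H2-Oa, H2-Ob, Icosl, Il1b, Irgm2, Msr1, Tnf, Tnfsf14 and Vsir. The groups compared, the lists and the tests were chosen with earlier results of these data known. Promoter sequences are those of RefSeq. Plots used Python 3.11.15 and matplotlib 3.10.9. The alternatives tried were other filters, normalizations, probe sets, array weights, a replicate block, a covariate for salivary genes (Amy1 with Bpifa2), and leaving out arrays. Scanner files were not used here.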

Additional observations from a re-analysis of the deposited data

Results flagged for a closer look

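For 10 genes the difference between abatacept and tolerised samples differed most between CD11c+ and CD4+ cells, by the interaction test. Values are the CD11c+ difference minus the CD4+ difference, on the log2 scale. The interaction was -3.30 for Ccl17, -3.96 for Stfa3 and -3.36 for Stfa2l1. Each of these was far lower on abatacept than on tolerised arrays of CD11c+ cells. Pxylp1, a xylose phosphatase gene, fell in CD11c+ cells (-1.21) and rose in CD4+ cells (1.84), an interaction of -3.05 (SE 0.20, adjusted p = 2.8e-10). Tgm2, which encodes a transglutaminase, rose in CD11c+ cells (1.31) and fell in CD4+ cells (-3.68), an interaction of 4.99. Its CD4+ arrays read 3.92, 4.24 and 4.57 after abatacept and 8.89, 7.67 and 7.19 in tolerised mice. The abatacept mean of Tgm2 there lay below the array medians, so the size of the fall is not exact. The mast cell protease Mcpt1 had an interaction of 4.35, with 2.27, 2.11 and 2.14 on abatacept and 6.28, 8.29 and 5.41 on tolerised CD4+ arrays, and lay below the array medians on all 6 CD11c+ arrays. Its abatacept values in CD4+ cells lay below the array medians too. The Y-linked genes Eif2s3y (6.20), Kdm5d (4.70) and Ssty2 (5.09) and the X-inactivation transcript Xist (-5.14) made up the rest. Eif2s3y read 2.41, 2.65 and 2.76 on abatacept and 8.88, 8.84 and 8.96 on tolerised CD4+ arrays, and Xist 11.43, 11.34 and 11.43 on abatacept and 7.28, 5.61 and 5.62 on tolerised ones. In CD11c+ cells neither gene was called between the groups. The part of these transcripts in the other interactions was not tested.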

How the results depend on the processing

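Across 18 alternatives the number of genes called between abatacept and tolerised cells stayed within 1.5 times of 3824, except that 766 (416 higher, 350 lower) were also at least 2-fold. Leaving out 1 array gave 3014 to 3608 calls, 1346 to 1657 higher and 1668 to 2100 lower. The replicate block gave 3754, with 1664 higher and 2090 lower. With only the 6 arrays compared in the fit, 3138 were called, 1426 higher and 1712 lower. Of 190 called genes named by rule, 176 kept the call and all 190 the sign under every alternative. Most were picked for a small adjusted p or a large difference in these data. Their share is therefore no measure for all called genes. Values that turned sign were uncalled ones. Cd80 came to 0.07 with the probe set highest over the CD11c+ arrays, between -0.291 and 0.069 without 1 array and to 0.089 without replicate 3 of both groups. Il12b came to 0.004 after a further quantile normalization, lay between -0.201 and 0.088 without 1 array and came to 0.104 without replicate 3 of both groups. Eif2s3y lay between -0.198 and 0.02 without 1 array, and Xist came to -0.033 without replicate 3 of both groups. The count of genes called between abatacept and unimmunised cells, 239 (214 higher, 25 lower), moved most, to 124 (90 higher) with quantile normalization, 128 (69 and 59) with arrays centred, 143 (129 and 14) with the salivary covariate and 55 (49 and 6) without replicate 3 of both groups. Leaving out 1 array gave 54 to 286 calls, 49 to 259 higher and 5 to 29 lower. With no filter 38 were lower, and 15 with the stricter one. Between tolerised and unimmunised cells 4958 genes were called, 4326 to 4876 without 1 array (2736 to 3221 higher, 1505 to 1684 lower), and centring gave 2136 higher and 2655 lower in place of 3252 and 1706. The interaction count of 2991 lay between 2536 and 3065 without 1 array (1489 to 1860 higher, 1026 to 1205 lower), and was 3252 (1608 and 1644) with quantile normalization and 2224 (1336 and 888) from the 12 arrays compared alone. Of 70 called genes with further probe sets above the array median, 4 had one with the opposite sign, Clec4a2, Ern1, Klk1 and Lamp2. The cause of these shifts was not tested. With 3 arrays a group and no label that ties a replicate to an animal, spread between mice is not known, and genes near the array medians are limited by background.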
